A study of Mus musculus with 24 samples.

Results

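The genes described here are 9 components and regulators of the complement system: C2, C3, C4b, C6, C8a, C9, Cfb, Cfi and Masp1. They were taken by gene symbol from a table of 33272 rows measured in mouse liver and kidney, and each was found on 1 row. RNA was sequenced from 24 libraries, 12 per organ, in 4 arms of 3 libraries each. The mice were of the C57BL/6 strain, and the labels give neither age nor sex. Control animals received no treatment. The cisplatin arm received 20 mg/kg of cisplatin, a platinum drug that crosslinks DNA, by injection into the peritoneum. The CBLB502 arm received 0.2 mg/kg of CBLB502, a flagellin-derived protein that activates TLR5, the toll-like receptor for flagellin. The combination arm received CBLB502 30 min before cisplatin, at the same doses. Organs of the treated arms were collected at 72 h. The labels describe no vehicle-injected group and do not say whether each library came from its own animal, so p-values measure the spread between libraries.

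Complement is a cascade of plasma proteins, made largely by hepatocytes, that marks targets for uptake and can build a pore in a membrane. The classical and lectin routes use the protease Masp1 and its relatives, C4 and C2, the alternative route uses factor B, and all of them converge on the cleavage of C3. Factor I, the product of Cfi, inactivates the cleaved forms of C3 and C4. C6, C8 and C9 are parts of the terminal pore, the membrane attack complex. Several complement genes, C3 and Cfb among them, are known acute-phase genes of the liver, and kidney tubule cells are known to make some complement proteins as well.

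The libraries were not alike in kind. Control libraries held 60.7 to 72.2% of their counts on mitochondrial genes and a further 19.8 to 21.9% on rows of a nuclear copy of mitochondrial DNA, against 2.57 to 14.2% and 0.87 to 4.43% in treated libraries. Counts on all other genes came to 2.82 to 4.65 M in liver controls and 5.05 to 10.1 M in kidney controls (M stands for 1000000 counts), and to 44.0 to 74.5 M in treated libraries. Each comparison with control is therefore also a comparison of these library kinds, and the part of that difference in the results cannot be told apart from treatment. Among treated libraries, cisplatin library 3 of liver and cisplatin library 6 of kidney stood apart. Saa1, an acute-phase gene, was at 171 counts per 1000000 (CPM) in the former and at 10130 and 25320 CPM in the other liver cisplatin libraries. Cdkn1a, a p53 target, was at 74.3 CPM in kidney cisplatin library 6 against 600 and 626 CPM in the other kidney cisplatin libraries. Tubule markers marked the kidney: their sum was 0.140 to 18.96 CPM in liver and 1817 to 8083 CPM in kidney. Hepatocyte markers were higher in liver, with a sum of 14300 to 86360 CPM against 598 to 2313 CPM in kidney. Of these 9 markers, 8 were called lower in control kidney than in control liver, beside 16.7% of all genes. Alb reached 141 CPM at most in kidney and was at least 7012 CPM in liver.

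Start-site sequences were held for 4 of the 9 genes, C3, C6, C8a and C9 (RefSeq, GRCm38.p6). The 250 bases upstream of 3 of them are shown because these windows hold a match to a searched motif while the genes differ in how they moved. Capitals mark the match, and each sequence reads 5′ to 3′ on the gene's strand. The C3 window is chr17:57228137-57228386 on the minus strand, with a C/EBP-type match (TTGCNNAA) starting at position -45. The C9 window is chr15:6445096-6445345 on the plus strand, with a C/EBP-type match at position -132. The C8a window is chr4:104876399-104876648 on the minus strand, with a STAT-type match (TTCNNNGAA) at position -228.
C3: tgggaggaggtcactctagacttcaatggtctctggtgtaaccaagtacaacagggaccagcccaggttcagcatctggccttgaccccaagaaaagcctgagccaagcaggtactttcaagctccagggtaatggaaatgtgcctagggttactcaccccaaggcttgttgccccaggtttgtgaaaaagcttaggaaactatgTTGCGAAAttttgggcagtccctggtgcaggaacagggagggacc
C9: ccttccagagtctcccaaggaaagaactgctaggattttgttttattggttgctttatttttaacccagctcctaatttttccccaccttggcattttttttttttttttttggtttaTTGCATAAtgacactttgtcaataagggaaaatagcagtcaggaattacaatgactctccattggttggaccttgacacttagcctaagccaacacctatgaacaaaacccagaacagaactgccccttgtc
C8a: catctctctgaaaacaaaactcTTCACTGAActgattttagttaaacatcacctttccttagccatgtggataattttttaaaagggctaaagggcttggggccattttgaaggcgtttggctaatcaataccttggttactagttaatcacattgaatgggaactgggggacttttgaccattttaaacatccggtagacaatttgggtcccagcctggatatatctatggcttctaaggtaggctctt
Both strands were searched over 300 bases, 250 before to 50 after the start. Of 32851 mouse promoters of that length, 10.8% held the C/EBP letters and 8.3% the STAT letters. The letters searched for NF-kB (GGNNTTTCC, in 5.82% of promoters), HNF1 (GTTAATNNT, 2.57%) and an interferon-response element (GAAANNGAA, 8.56%) had no match in the 4 windows, and C6 had no match to any. A match is a description of letters only: C3 and C9 share the C/EBP letters, and their RNA levels behaved differently in the values that follow.

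Liver held far more complement RNA than kidney, and the order of the genes differed between the organs. Levels were compared between genes as CPM per kilobase of exon, on TMM-scaled libraries. In control liver, C3, the central component, came first with 555 ± 469 CPM per kb (SD, n = 3). C4b, the C4 component that C2 and the lectin proteases act with, followed with 174 ± 70.7, Cfb with 118 ± 47.4 and C8a with 94.1 ± 35.2 CPM per kb. C9 had 54.9 ± 15, Cfi 38.7 ± 9.07, C6 16.1 ± 5.81, C2 13.4 ± 4.86 and Masp1 4.53 ± 1.87 CPM per kb. The ranges of mean ± SD overlapped between neighbours from C3 down to Cfi, as did those of C6 and C2. In control kidney Cfb, the protease of the alternative route, led with 35.5 ± 5.32 CPM per kb. C3 followed with 14.5 ± 16.6, C2 with 4.71 ± 0.207, C8a with 2.39 ± 0.182, C4b with 2.37 ± 2.05 and Cfi with 1.09 ± 0.273 CPM per kb. Masp1, C6 and C9 were each below 0.36 CPM per kb in control kidney, and C9 rested on 9 counts in 1 library and 0 in the other two.

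All 9 genes were lower in control kidney than in control liver, where 16.7% of the 21570 genes tested were called lower. The smallest differences were those of C2, at -2.60 ± 0.290 (log2 fold change ± SE, edgeR adjusted p = 1.06e-06), and of its chromosomal neighbour Cfb, at -2.82 ± 0.263 (edgeR adjusted p = 9.54e-08). The other 7 genes were lower by at least 4.83 on the log2 scale, the value of Masp1. After CBLB502 alone, which involves no control library, all 9 were again lower in kidney (background 13.3% called lower), with C2 at -2.04 ± 0.282, Cfb at -2.14 ± 0.256 and the rest between -5.23 for C8a and -9.50 for C9. In the fits with other scalings, filters and tools, and with any library left out, the count stayed at 9 of 9 in both comparisons.

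**Figure D1:**
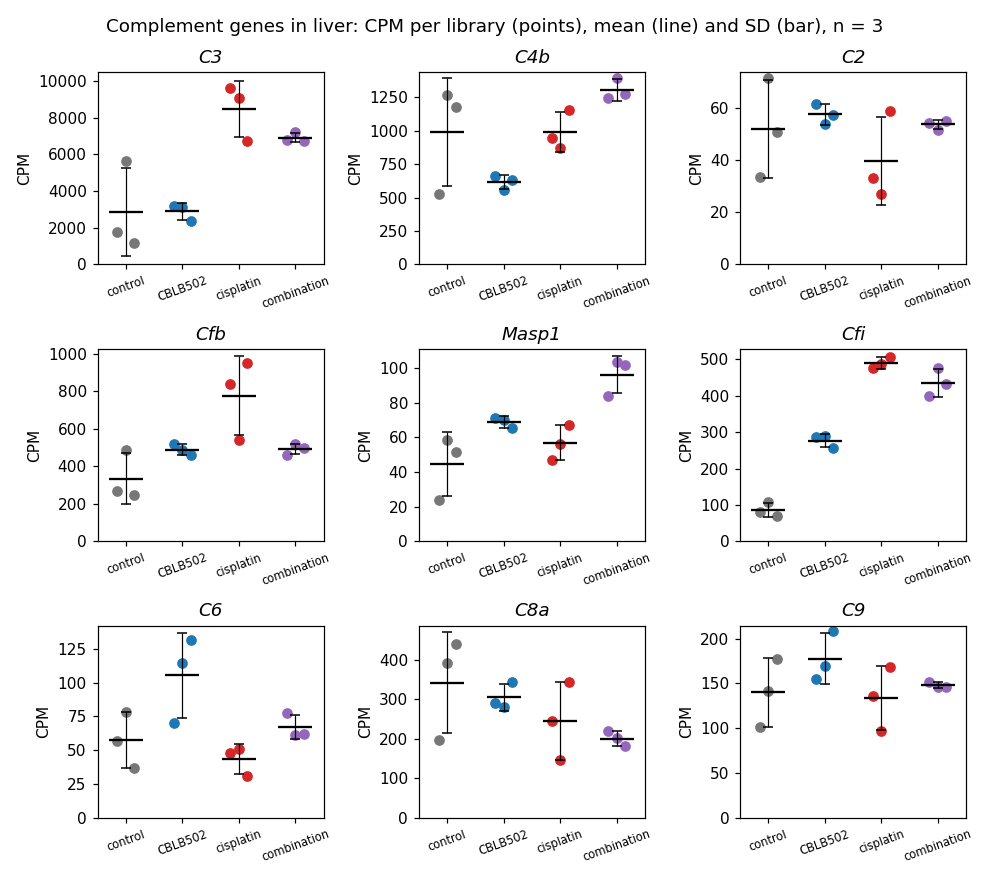
CPM (vertical axis, from 0) of the 9 genes in the 12 liver libraries by arm. Points are libraries, the line is the mean and the bar the SD (n = 3). All 9 treated Cfi points lie above the control points, and C3 is highest in the cisplatin and combination arms.

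In liver, Cfi, Cfb and C3 were higher after cisplatin than in control, and Cfi was also higher after CBLB502. The other 6 genes did not pass the test in either comparison. After cisplatin 3 of 9 genes were called higher and 0 lower, beside 25.6% and 17.5% of the 17931 genes tested. The median log2 fold change of the 9 was 0.00, against 0.09 over all genes. After CBLB502 1 of 9 was called higher (background 18.3%) and 0 lower (background 9.48%), with a median of 0.34 against 0.14. The comparisons share their control libraries.

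Cfi, which encodes the protease that inactivates cleaved C3 and C4, had 79.4, 109 and 69.9 CPM in the control livers. It had 286, 290 and 255 CPM after CBLB502, 477, 487 and 508 CPM after cisplatin, and 399, 476 and 433 CPM after the combination. Control, CBLB502 and cisplatin did not overlap with one another, and the combination libraries lay just below those of cisplatin. The log2 fold change was 2.51 ± 0.215 for cisplatin versus control (5.70-fold, edgeR adjusted p = 9.62e-06) and 1.69 ± 0.209 for CBLB502 versus control (3.22-fold, edgeR adjusted p = 0.000204). Both calls held in every alternative fit, at 1.31 to 2.59 and 1.12 to 1.77, and without any 1 library. The ratio of Cfi to C9 within a library, which needs no scaling between libraries, was 0.453 to 0.905 in control, 1.41 to 2.13 after CBLB502, 3.47 to 5.80 after cisplatin and 3.03 to 3.77 after the combination, on CPM per kb. Hepatocyte markers rose in the same comparison: their sum was 14300 to 27660 CPM in control and 49970 to 86360 CPM in the treated arms, and 9 of 9 were called higher after cisplatin and 6 of 9 after CBLB502. The part of this in the complement results was not tested. In bulk tissue a change in the share of cells of a type and a change in RNA per cell cannot be told apart.

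C3, the component on which all routes converge, varied widely among the control livers, at 1754, 5619 and 1189 CPM. CBLB502 livers had 3195, 3139 and 2370 CPM, cisplatin livers 9630, 9069 and 6735 CPM, and combination livers 6758, 7193 and 6746 CPM. Each library of the 2 arms given cisplatin was above each library of the other arms. Cisplatin versus control gave 1.57 ± 0.475 (2.97-fold, edgeR adjusted p = 0.0196). CBLB502 versus control gave 0.02 ± 0.464 (edgeR adjusted p = 0.976). The cisplatin call was lost without control library 1 (1.33, edgeR adjusted p = 0.0692) or 3 (1.22, 0.0504), and in a fit of only the 6 libraries compared (1.5, 0.103). Control library 2 set the scale of both values: without it they were 2.55 and 1.01 (edgeR adjusted p = 0.000167 and 0.0248).

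Cfb, the alternative-route protease, had 269, 488 and 245 CPM in control liver and 836, 542 and 950 CPM after cisplatin. CBLB502 livers had 516, 487 and 459 CPM and combination livers 461, 518 and 494 CPM, so that cisplatin alone held the highest libraries. Cisplatin versus control gave 1.22 ± 0.293 (2.32-fold, edgeR adjusted p = 0.00596), and CBLB502 versus control 0.55 ± 0.290 (edgeR adjusted p = 0.185; without control library 2, 0.95 and 0.0224). The cisplatin call was lost in a fit of only the 6 libraries compared (1.15, edgeR adjusted p = 0.0703). C2 lies next to Cfb on chromosome 17 (C2 at 34862604 to 34898265 and Cfb at 34856374 to 34862518, GRCm38). C2 had 33.0, 26.8 and 58.9 CPM after cisplatin and 33.6, 71.2 and 50.8 CPM in control. The log2 difference was -0.39 ± 0.311 (edgeR adjusted p = 0.324), and without cisplatin library 3 it was -0.77 (edgeR adjusted p = 0.0309). The ratio of Cfb to C2 on CPM per kb was 22.1 to 34.7 after cisplatin and 6.60 to 13.8 in the other 9 liver libraries. A predicted gene, Gm20547, overlaps both loci, so counts of the pair carry that uncertainty.

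The remaining liver genes overlapped between cisplatin and control. C4b had 530, 1269 and 1177 CPM in control and 946, 868 and 1156 CPM after cisplatin, a log2 difference of 0.00 ± 0.295. C8a, a subunit of the terminal pore, had 197, 391 and 439 CPM in control and 246, 146 and 344 CPM after cisplatin (-0.48 ± 0.338, edgeR adjusted p = 0.270). C9, the protein that polymerises into the pore, differed by -0.07 ± 0.258, C6 by -0.40 ± 0.316 and Masp1 by 0.35 ± 0.289, with edgeR adjusted p from 0.326 to 0.845. C4b after CBLB502 was at 664, 557 and 629 CPM (-0.69 ± 0.297 versus control, edgeR adjusted p = 0.109). C6 after CBLB502 was at 70.1, 115 and 131 CPM against 56.7, 78.3 and 36.9 CPM in control (0.88 ± 0.318, edgeR adjusted p = 0.0605; 1.14 and 0.0325 without CBLB502 library 1, 1.20 and 0.0266 without control library 2). C4b was called lower without control library 1 (-0.97, edgeR adjusted p = 0.00704), by DESeq2 (-0.92, 0.00378), on median-of-ratios factors (-0.92, 0.0320) and on non-mitochondrial totals (-1.24, 0.0175).

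Which of these differences were called depended on how control libraries were scaled. With libraries scaled by their non-mitochondrial totals, an alternative chosen after seeing the data, the median of all genes for cisplatin versus control moved from 0.09 to -1.15 in liver and from 0.06 to -0.69 in kidney. In liver, Cfi stayed higher (1.31), while C3 (0.40, edgeR adjusted p = 0.477) and Cfb (0.05, edgeR adjusted p = 0.905) were no longer called. C2, C4b, C6, C8a, C9 and Masp1 were then called lower, at -0.81 for Masp1 to -1.64 for C6 and C8a, beside 40.6% of all genes called lower and 6.8% higher. Cfi, C3 and Cfb lay above the median of all genes in liver under both scalings, and so did Masp1, which was not called higher under either.

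**Figure D2:**
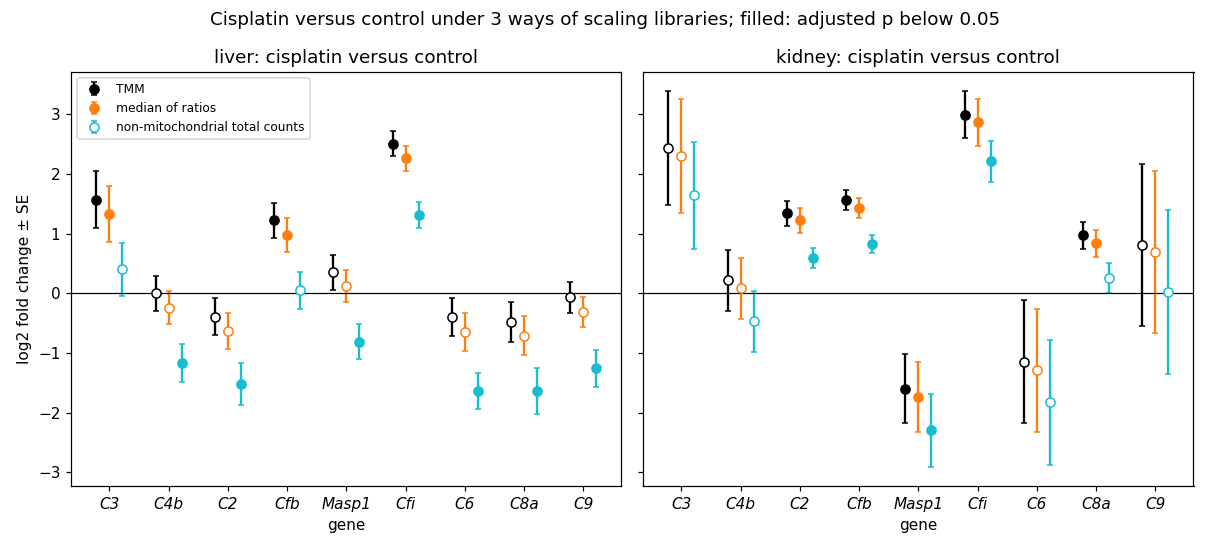
Log2 fold change ± SE of cisplatin versus control for each gene in liver (left) and kidney (right) under 3 ways of scaling libraries. Filled points have an adjusted p below 0.05. The non-mitochondrial totals shift every gene down. On them Cfi, C3 and Cfb stay above 0 in both organs, and of these only Cfi is filled in both.

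Adding CBLB502 to cisplatin left the 9 liver genes without a call. For combination versus cisplatin 0 of 9 passed (background 3.57% of genes called, 0.993% higher and 2.58% lower). With edgeR 2 of 9, Masp1 and Cfb, had an unadjusted p under 0.05, a share near the 21.1% of all genes, and DESeq2 also called 0 (15.3% of all genes). Cfb was 1.58-fold lower in mean (-0.66 ± 0.290, edgeR adjusted p = 0.219), and its groups did not overlap. Masp1, the lectin-route protease, had 83.9, 103 and 102 CPM after the combination and 47.0, 56.4 and 67.3 CPM after cisplatin (0.76 ± 0.289, edgeR adjusted p = 0.161). Groups did not overlap for 5 of the 9 genes, Cfb, Masp1, C4b, C6 and Cfi, nor for 28.6% of all genes. The log2 differences of these 5 were -0.66 to 0.76. Without cisplatin library 3, C2 passed (0.85, edgeR adjusted p = 0.0358), in a fit that called 12.5% of all genes higher and 10.6% lower.

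Cisplatin on a CBLB502 background, combination versus CBLB502, also gave 0 of 9 calls in liver (background 6.74%). This contrast involves no control library. With edgeR 3 of the 9 genes had an unadjusted p under 0.05 (19.8% of all genes). C4b had 1242, 1397 and 1273 CPM in the combination, above its CBLB502 libraries (1.08 ± 0.299, edgeR adjusted p = 0.0534). C3 was 2.38-fold higher in mean (1.25 ± 0.471, edgeR adjusted p = 0.15) and Cfi 1.57-fold (0.65 ± 0.204, edgeR adjusted p = 0.0816). None of the 3 overlapped between the groups, nor did 47.3% of all genes. C4b and Cfi were called by DESeq2, at adjusted p = 0.00264 and 0.00366 (15% of all genes called). In a fit of only these 6 libraries, 6 genes were called by edgeR: C3, C4b, Cfi and Masp1 higher, C6 and C8a lower. That fit called 15.3% of all genes higher and 16.1% lower. C4b shares reads with its near copy C4a, which had 16.3 to 34.2 CPM after CBLB502 and 37.1 to 56.1 CPM after the combination, so the split between them is uncertain.

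The interaction, the combination change less the sum of the single changes, was called for 1 of 9 liver genes (background 14.5% called lower, 7.14% higher). Cfi had an interaction of -1.86 ± 0.290 (edgeR adjusted p = 0.00134): the combination was below what the single rises add up to on the log2 scale. That value stayed called in every alternative (-1.94 to -0.99) and without any 1 library. Alb, a hepatocyte marker, had -1.78 ± 0.496 (edgeR adjusted p = 0.0244). The 9 hepatocyte markers had a median of -1.20, against -0.23 over all genes, and 3 of them were called lower. The part of this in the Cfi value was not tested. Cfb had -1.21 ± 0.410 (edgeR adjusted p = 0.0561) and C4b 1.08 ± 0.419 (0.0889). Cfb passed without control library 2 (-1.61, edgeR adjusted p = 0.00881) or cisplatin library 2 (-1.44, 0.0345), and C4b without control library 1 (1.37, 0.00662) or cisplatin library 3 (1.19, 0.0450). DESeq2 called both, Cfb at -1.01 (adjusted p = 0.0434) and C4b at 1.27 (0.00605). Of 16617 genes it called 2314 higher and 2713 lower. C4b also passed on median-of-ratios factors (1.27, edgeR adjusted p = 0.0428) and on non-mitochondrial totals (1.92, 0.0134), and C3 without control library 2 (-1.30, 0.0312).

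**Figure D3:**
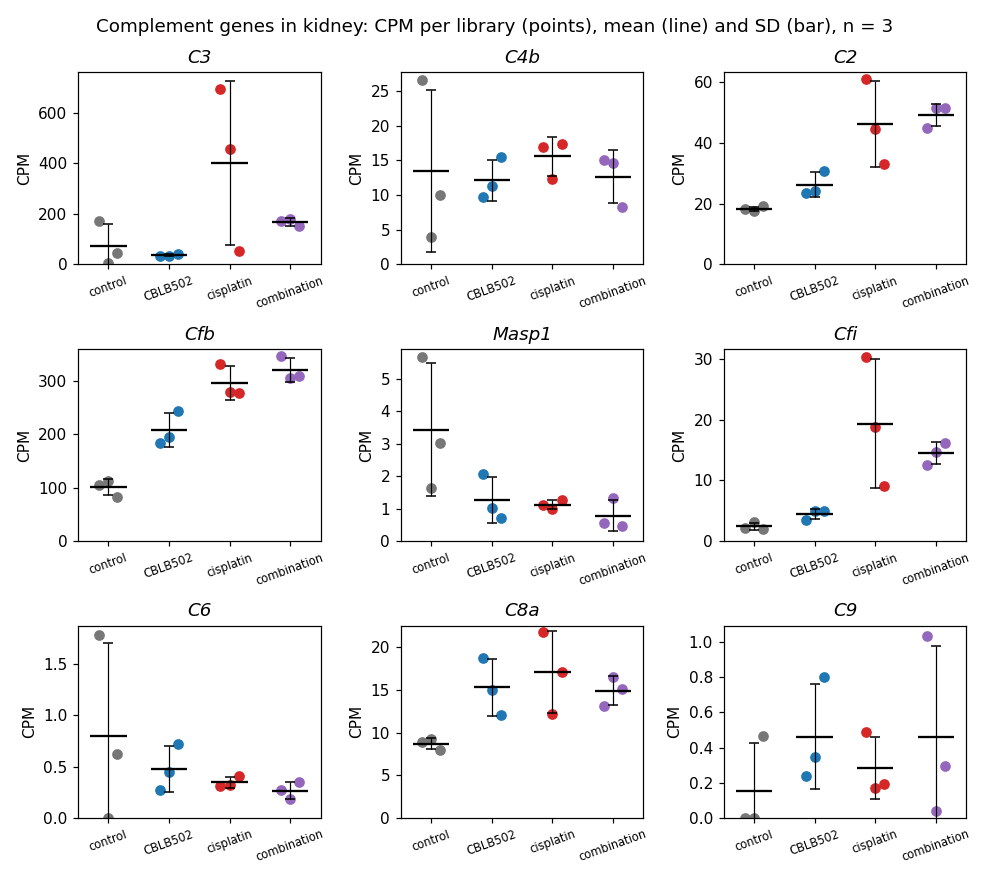
CPM (vertical axis, from 0) of the 9 genes in the 12 kidney libraries by arm. Points are libraries, the line is the mean and the bar the SD (n = 3). Cfb and C2 step up from control to CBLB502 to the arms given cisplatin, while C3 spreads from 51.8 to 694 CPM within the cisplatin arm.

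In kidney, Cfb, C2, Cfi and C8a were higher and Masp1 lower after cisplatin than in control, and Cfb and C8a were higher after CBLB502. Cisplatin gave 4 of 9 called higher and 1 lower, beside 24.1% and 15.2% of the 20341 genes tested, with a median of 0.97 against 0.06 over all genes. CBLB502 gave 2 of 9 higher and 0 lower (background 11.4% and 7.77%), with a median of 0.53 against 0.05. Column names tie treated kidney columns, numbered 4 to 6, to an arm, and the labels do not tie them to a single sample.

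Cfb, the gene with the highest mean CPM per kb of the 9 in each kidney arm, had 106, 112 and 83.4 CPM in control. It had 183, 195 and 244 CPM after CBLB502, 331, 279 and 276 CPM after cisplatin, and 346, 305 and 309 CPM after the combination. The 3 levels did not overlap, and the arms given cisplatin lay together at the top. Cisplatin versus control gave 1.56 ± 0.172 (2.94-fold, edgeR adjusted p = 6.26e-05) and CBLB502 versus control 1.05 ± 0.170 (2.07-fold, edgeR adjusted p = 0.00170). Both held in every alternative fit, at 0.83 to 1.58 and 0.83 to 1.09. C2, the protease of the classical and lectin convertase, was steady in control at 18.2, 17.5 and 19.1 CPM. It had 23.7, 24.3 and 30.9 CPM after CBLB502, 61.2, 44.6 and 33.1 CPM after cisplatin, and 45.0, 51.5 and 51.4 CPM after the combination. Cisplatin versus control gave 1.34 ± 0.207 (2.54-fold, edgeR adjusted p = 0.000483), a call kept in every alternative at 0.59 to 1.37. CBLB502 versus control gave 0.53 ± 0.204 (edgeR adjusted p = 0.0939), and it passed in a fit of only these 6 libraries (0.48, 0.0374). That fit called 2897 of 18546 genes higher and 2401 lower.

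Cfi, low in kidney, had the largest fold change of the 9 genes after cisplatin with all libraries in the fit, though not with each library left out. It had 2.11, 3.12 and 2.03 CPM in control, 3.47, 4.89 and 4.93 CPM after CBLB502, 30.2, 18.7 and 9.07 CPM after cisplatin, and 12.5, 14.7 and 16.1 CPM after the combination. The 9.07 CPM belongs to cisplatin library 6, which stood apart, and lay above every control and CBLB502 library. Cisplatin versus control gave 2.99 ± 0.393 (8.0-fold, edgeR adjusted p = 0.000184), and it stayed called in every alternative at 2.21 to 3.01. CBLB502 versus control gave 0.86 ± 0.375 (edgeR adjusted p = 0.134).

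C3 had 170, 6.72 and 46.0 CPM in control kidney, 34.5, 33.5 and 42.8 CPM after CBLB502, 694, 457 and 51.8 CPM after cisplatin and 172, 181 and 151 CPM after the combination. The controls differed 25.3-fold among themselves and the cisplatin libraries 13.4-fold, so groups overlapped. Cisplatin versus control gave 2.44 ± 0.956 (edgeR adjusted p = 0.0619). It passed without cisplatin library 6 (2.97, edgeR adjusted p = 0.00888) and without control library 1 (3.94, 0.0151). Control library 1 was also the highest control for C4b (26.6 against 3.98 and 10.0 CPM), Masp1 and C6, and for Cfd, the factor D gene known for its expression in fat, at 1522 CPM against 2.95 and 340 CPM. The part of this in the control levels was not tested.

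C8a had 8.88, 9.23 and 7.95 CPM in control kidney, 18.7, 15.01 and 12.1 CPM after CBLB502 and 21.8, 12.2 and 17.04 CPM after cisplatin. It was called higher after cisplatin (0.97 ± 0.230, edgeR adjusted p = 0.00621) and after CBLB502 (0.81 ± 0.230, 0.0289). Neither call held on non-mitochondrial totals (0.25 and 0.61, edgeR adjusted p = 0.429 and 0.117). The CBLB502 call was also lost without control library 1, 2 or 3 or CBLB502 library 4 or 5. Masp1 was low, at 5.67, 1.64 and 3.01 CPM in control and 1.12, 0.981 and 1.27 CPM after cisplatin (-1.60 ± 0.581, edgeR adjusted p = 0.0462). That call was lost without control library 1 (-1.03, edgeR adjusted p = 0.202) or 3 and without any 1 cisplatin library, with no filter on low counts (-1.58, 0.0652) and in a fit of only the 6 libraries compared (-1.68, 0.0611). DESeq2 called Masp1 lower after CBLB502 as well (-1.5, adjusted p = 0.0447). C4b overlapped in all arms (0.22 ± 0.510 for cisplatin versus control), although without control library 1 it passed (1.17, edgeR adjusted p = 0.0496). C6 and C9 did not exceed 1.78 and 1.04 CPM in any kidney library, and no difference between kidney arms was called for either. Whether depth or the spread between libraries limited these tests was not tested. Hepatocyte markers summed to 598 to 709 CPM in control kidney and 1130 to 2313 CPM in the treated arms, endothelial and stromal markers to 394 to 566 CPM in control and 22.8 to 103 CPM after cisplatin, and tubule markers to 1923 to 3553 CPM in control and 1817 to 5798 CPM after cisplatin. Tubule markers summed to 7572 to 8083 CPM after CBLB502 and 3706 to 4316 CPM after the combination. After CBLB502 6 of these 9 markers were called higher than control, beside 11.4% of all genes. For combination versus CBLB502 1 was called higher and 3 lower (all genes 14.9% and 8.98%). The part of these shifts in the complement results was not tested.

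**Figure D4:**
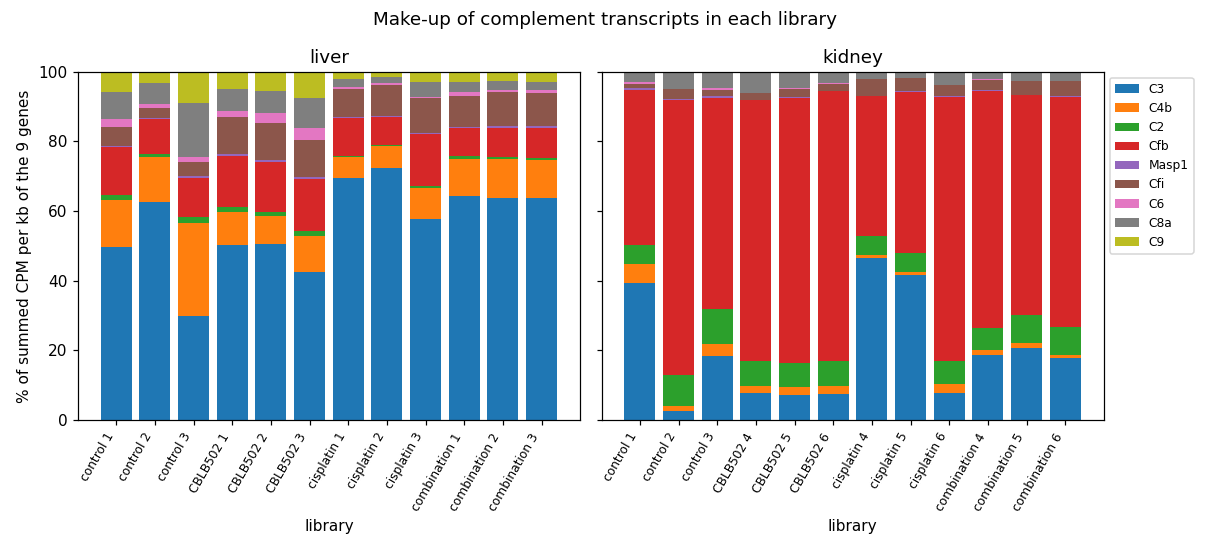
Share of each gene in the summed CPM per kb of the 9 genes (vertical axis, percent), 1 bar per library, liver left and kidney right. C3 takes 29.8 to 72.5% in liver, while Cfb takes 40.3 to 78.9% in kidney.

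The make-up of complement RNA differed between the organs in every library. C3 made up 57.7 to 72.5% of the summed CPM per kb in liver after cisplatin and 29.8 to 62.6% in control liver. Cfb made up 7.89 to 15% in liver and 40.3 to 78.9% in kidney. In kidney cisplatin libraries 4 and 5, C3 made up 46.4 and 41.6% of the sum, beside 7.85% in library 6 and 17.7 to 20.7% after the combination. C3 over C4b on CPM per kb was 45.2 and 40.9 in those 2 cisplatin libraries, 12.6 to 20.3 in the combination libraries and at most 7.10 in the other 7 kidney libraries.

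In kidney, no difference between the combination and cisplatin passed the test for the 9 genes. With edgeR 0 of 9 were called, beside 0.00492% of all genes. None of the 9 had an unadjusted p under 0.05 (12.9% of all genes), and DESeq2 called 0 (4.47% of all genes). The largest mean difference was in C3, which was 2.39-fold lower (-1.26 ± 0.918, edgeR adjusted p = 0.622). Without cisplatin library 6, Cfi was called lower in the combination (-0.76, edgeR adjusted p = 0.0478). That fit called 12% of all genes higher and 10.3% lower. Combination versus CBLB502, again without control libraries, gave 3 of 9 higher and 0 lower (background 14.9% and 8.98%), with a median of 0.06 against -0.02 over all genes. Cfi was 3.25-fold higher (1.70 ± 0.363, edgeR adjusted p = 0.00598), C2 1.87-fold (0.91 ± 0.203, 0.00773) and Cfb 1.54-fold (0.63 ± 0.168, 0.0193). Only Cfi of these kept its call on non-mitochondrial totals (C2 0.46, edgeR adjusted p = 0.0547, and Cfb 0.18, 0.389). The Cfb call was also lost without CBLB502 library 4 or 5 or combination library 4 or 6 (edgeR adjusted p = 0.0511 to 0.0945). C3 was 4.55-fold higher with no overlap and did not pass (2.19 ± 0.945, edgeR adjusted p = 0.117). It passed in a fit of only these 6 libraries (edgeR adjusted p = 2.37e-05). That fit called 4605 of 19266 genes higher and 4891 lower.

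The kidney interaction was called for Cfb, at -0.93 ± 0.238 (edgeR adjusted p = 0.0360, background 5.41% called lower and 2.6% higher). It was lost on non-mitochondrial totals (-0.65, edgeR adjusted p = 0.0876) and when any 1 of control 1 or 3, CBLB502 4, 5 or 6, cisplatin 4, or combination 4, 5 or 6 was left out (edgeR adjusted p = 0.0534 to 0.0962). The same term was -1.01 ± 0.321 for C8a (edgeR adjusted p = 0.0774) and -1.28 ± 0.515 for Cfi (0.147). Without cisplatin library 6 both passed (Cfi -1.62, edgeR adjusted p = 0.00671, and C8a -1.01, 0.0432). C8a also passed without cisplatin library 5 (-1.22, edgeR adjusted p = 0.0287) and by DESeq2 (-0.95, adjusted p = 0.0478). The 9 tubule markers had a median interaction of -1.64 in kidney, against -0.07 over all genes, and 3 of them were called lower. The part of this in the complement values was not tested.

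**Figure D5:**
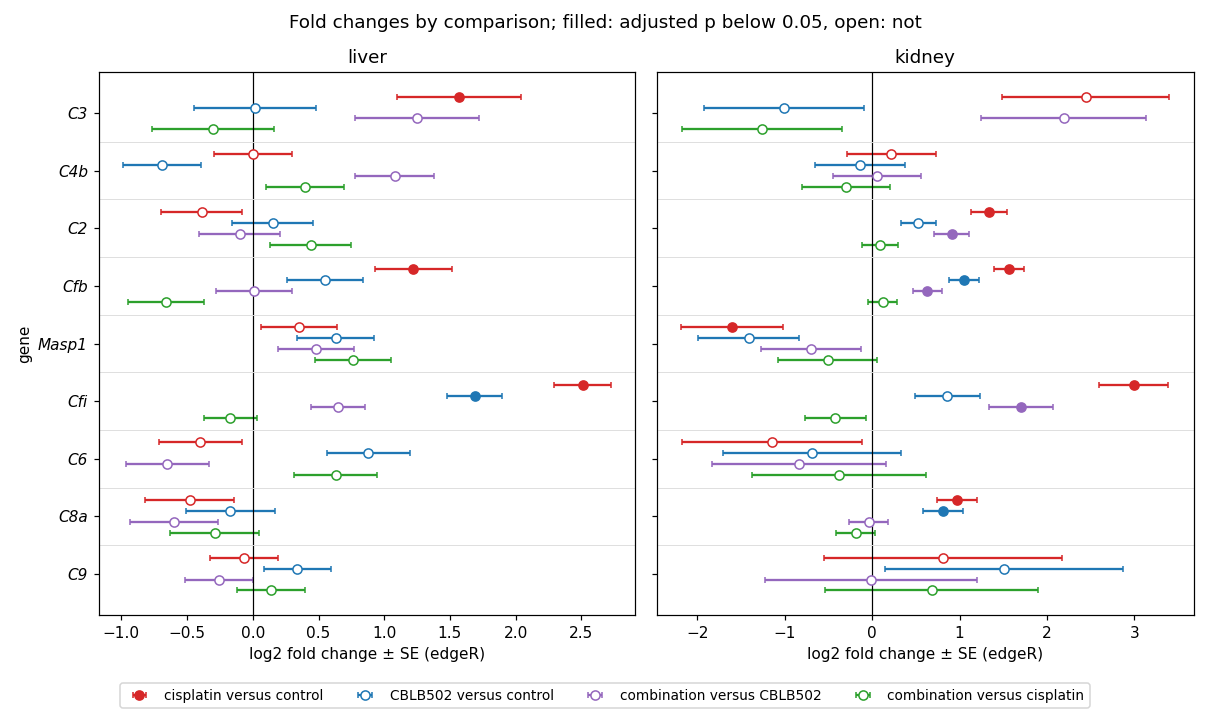
Log2 fold change ± SE (edgeR, horizontal axis) of the 9 genes in 4 comparisons, liver left and kidney right. Filled points have an adjusted p below 0.05. In the comparison of combination with cisplatin no point is filled in either organ, and Cfi is filled for cisplatin versus control in both.

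The response of the organs was compared directly on treated libraries. For combination versus CBLB502, the kidney change less the liver change passed for 0 of 9 genes (background 6.96% called). With edgeR 2 had an unadjusted p under 0.05, C2 (0.94 ± 0.384, edgeR adjusted p = 0.155) and Cfi (0.98 ± 0.412, 0.171), where 20.7% of all genes did. DESeq2 called 0 (17.7% of all genes). A fit of only these 12 libraries called 5, with the change in C2, C3, Cfb and Cfi higher in kidney and that in C4b lower, and it called 17.4% of all genes higher and 12.4% lower. For combination versus cisplatin 0 of 9 passed (background 0.964%), 1 had an unadjusted p under 0.05 (13.7% of all genes), and DESeq2 called 0 (6.83% of all genes). That 1 was Cfb (0.83 ± 0.347, edgeR adjusted p = 0.286).

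Of 48 further complement genes listed, 47 were in the table and 44 passed the filter in liver. After cisplatin 17 of 44 were called higher and 13 lower than control, beside 25.6% and 17.5% of all genes (median log2 difference 0.22). After CBLB502 16 were called higher and 4 lower, beside 18.3% and 9.48% (median 0.92). Of 11 tested fluid-phase regulators, 10 were higher after cisplatin and 10 after CBLB502, against the same shares of 25.6% and 18.3%. Cpb2, an inactivator of complement peptides, was 9.59-fold higher after cisplatin (3.26 ± 0.392, edgeR adjusted p = 7.06e-05) and C4bp, a cofactor of factor I, 7.28-fold. On non-mitochondrial totals 6 of 11 were higher and 1 lower after cisplatin (all genes 6.8% and 40.6%), and 4 were higher after CBLB502 (all genes 6.8%). The interaction was called lower for 7 of the 11 regulators, beside 14.5% of all genes.

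Of 13 recognition molecules and initiating proteases tested in liver, 4 were higher and 5 lower after cisplatin, where 25.6% and 17.5% of all genes were called. Mbl2, the plasma mannose-binding lectin, was 11.4-fold higher (3.51 ± 0.576, edgeR adjusted p = 0.000545), with 1157 CPM in cisplatin library 3 against 240 and 256 CPM in the others. Colec11, another collectin, was 8.64-fold lower (-3.10 ± 0.589, edgeR adjusted p = 0.00141). Of the terminal components, C8b, the partner chain of C8a, was 3.02-fold higher after cisplatin (1.60 ± 0.219, edgeR adjusted p = 0.000169) and 2.96-fold after CBLB502 (1.57 ± 0.219, 0.000434). C8a itself was not called in either. Properdin (Cfp), a stabiliser of the alternative convertase made by leukocytes, had 25.1 to 30.3 CPM in control, 8.89 to 10.6 CPM after cisplatin and 3.24 to 3.81 CPM after the combination, which was lower than cisplatin (-1.44 ± 0.183, edgeR adjusted p = 0.00567). Of 8 complement receptors, 4 were lower after cisplatin and 0 higher (all genes 17.5% and 25.6%), among the former Vsig4, a Kupffer cell receptor for C3 fragments (14.8-fold, edgeR adjusted p = 0.000451). Macrophage and Kupffer cell markers summed to 105 to 147 CPM in control liver, 24.6 to 99.4 CPM after cisplatin and 15.5 to 24.8 CPM after the combination, and their part in these falls was not tested. In combination versus cisplatin 0 of the 44 were higher and 5 lower in liver (all genes 0.993% and 2.58%). Without cisplatin library 3, 45 were tested, of which 8 were higher and 8 lower, while the shares of all genes also rose, to 12.5% and 10.6%.

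In kidney 41 of the further genes were tested. After cisplatin 10 were higher and 10 lower, beside 24.1% and 15.2% of all genes (median -1.01), so the share called higher was near that of all genes. After CBLB502 5 were higher and 6 lower, beside 11.4% and 7.77%. Clu, a secreted inhibitor of the terminal pore, rose most among the regulators with counts in control: it had 53.5, 34.7 and 30.6 CPM in control and 831, 949 and 272 CPM after cisplatin (17.3-fold, edgeR adjusted p = 4.27e-05). C7, a terminal component with 0 counts in control liver, had 18.4, 9.47 and 12.7 CPM in control kidney and 0.433, 0.981 and 0.937 CPM after cisplatin (17.3-fold lower, edgeR adjusted p = 3.48e-05). C1s1, the C1s protease, was 14.3-fold lower after cisplatin and 4.30-fold lower after CBLB502. C8g, the third C8 chain, was 2.79-fold higher after cisplatin (edgeR adjusted p = 0.000411). Cpb2 had 0 counts in the control kidneys and 1.9 CPM in mean after cisplatin, at least 35.2-fold higher against a floor of 3 counts over the group. Combination versus cisplatin called 0 of 41 with edgeR and 0 with DESeq2. Without cisplatin library 6, 42 were tested, of which 6 were higher and 1 lower, beside 12% and 10.3% of all genes in that fit.

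Genes whose levels were most like those of C3 across the 9 treated libraries are given as a description. In liver they were Serpina3m (Pearson r = 0.989 on log2 CPM), Klhl24 (0.988) and Mt2 (0.987). In kidney they were Gadd45a (0.994), Stx3 (0.990) and Gramd3 (0.988). Mt2, a metallothionein, had 1984, 1660 and 243 CPM in the liver cisplatin libraries. Gadd45a, a p53 target, had 108, 90.3 and 19.4 CPM in the kidney cisplatin libraries, where C3 was also lowest in library 6. For C8a in liver the nearest were Nfe2l1 (0.940), Zranb2 (0.924) and Acat3 (0.921). These points share libraries and arms.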

How the data were processed

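Total RNA from liver and kidney was sequenced in 24 libraries. The authors deposited 1 table with whole-number counts per gene for all 24 libraries and FPKM values for each; 9 FPKM columns of treated kidney could not be tied to samples and were not used, and the deposited FPKM of the other 15 served only to check gene lengths. Per the submitters' processing notes, cutadapt 1.9 and FastQC were used; aligner, counter and strand setting are not given in the sources used here. Gene coordinates in the table matched GENCODE vM21 (GRCm38) for 99.7% of shared identifiers.

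Counts were tested with edgeR 4.0.16 (quasi-likelihood, filterByExpr, TMM scaling, R 4.3.3), in 1 fit per organ of 12 libraries and 1 fit of 24 for organ comparisons, with Benjamini-Hochberg adjustment over all genes tested and a threshold of 0.05. CPM values are TMM-scaled. There were 14 comparisons. All 9 genes passed the filter in each fit. Named genes were all 9, up to 3 called genes with the largest change per complement list and comparison, of which some are given, and the 3 genes with the highest Pearson r with C3 or C8a, among genes with a mean of at least 10 CPM. The members and gene lists were chosen with earlier results of these data known. On counts simulated with a dispersion of 0.05, 100% of genes with 4-fold changes were recovered in both combination-versus-cisplatin tests, and with 2-fold rises 50% in liver and 46% in kidney. The dispersions edgeR estimated for the 9 genes were 0.054 to 0.171 in liver and 0.032 to 1 in kidney (0.538 for C3). All 9 lay above 0.05 in liver, and all but C2, C8a and Cfb did in kidney. These shares do not apply to genes above 0.05, for which recovery was not tested. Alternatives were DESeq2 1.42.0, median-of-ratios factors, no filter, only the compared groups, mitochondrial rows left out, rows sharing reads added, a replicate block and each library left out; the non-mitochondrial totals and the joint removal of the cisplatin libraries that stood apart were added after seeing the data. A check of liver replicate numbers showed no clear pairing of the samples, which it cannot exclude.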

Additional observations from a re-analysis of the deposited data

Results flagged for a closer look

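In liver the effect of cisplatin on Cfi differed with CBLB502: the interaction was -1.86 ± 0.290 on the log2 scale (edgeR adjusted p = 0.00134). Cisplatin moved the mean from 86.0 to 491 CPM without CBLB502 and from 277 to 436 CPM with it. The liver interaction of Alb was -1.78 ± 0.496 (edgeR adjusted p = 0.0244), and 3 of 9 hepatocyte markers were called lower, beside 14.5% of all genes. In kidney the interaction for Cfb was -0.93 ± 0.238 (edgeR adjusted p = 0.0360), beside 5.41% of all genes called lower. Cisplatin moved its mean from 100.4 to 295 CPM without CBLB502 and from 207 to 320 CPM with it. The Cfb call was lost on non-mitochondrial totals (edgeR adjusted p = 0.0876) and without any 1 of several libraries (0.0534 to 0.0962). For the kidney interaction 3 of 9 tubule markers were called lower. Both terms involve the control libraries. A signal also appeared on a row outside the comparisons: Gm20547, a predicted gene of chromosome 17 (34856412 to 34882042, GRCm38) that overlaps C2 and Cfb, had 12.3 CPM in liver cisplatin library 3. It had 0 CPM in the other 17 treated libraries and at most 0.302 CPM in the controls. C2 had 58.9 CPM and Cfb 950 CPM in that library, the highest of the liver cisplatin arm. Adding the row's reads to C2 and Cfb changed none of their calls.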

How the results depend on the processing

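On non-mitochondrial totals the number of the 9 genes called became 7 for cisplatin versus control in liver (1 higher, 6 lower). Masp1 was reversed there, to -0.81. Of all genes 6.8% were called higher and 40.6% lower. For CBLB502 versus control in liver 2 were called, where 1250 of 18381 genes were higher and 3269 lower. For the liver interaction 2 were called, where 2951 of all genes were higher and 676 lower. In kidney 1, 1 and 0 were called for CBLB502 versus control, combination versus CBLB502 and the interaction. Of 21222 genes, those kidney fits called 1371, 1497 and 692 higher and 2442, 4188 and 522 lower, in that order. DESeq2 called 2 genes for CBLB502 versus control in liver, beside 2917 of 16963 genes higher and 3226 lower. For combination versus CBLB502 in liver it called 2, beside 15% of all genes. For the liver interaction it called 3, beside 2314 of 16617 genes higher and 2713 lower. For the kidney interaction it called 2, beside 1304 of 19439 genes higher and 1777 lower. Median-of-ratios factors called 2 for CBLB502 versus control in liver, beside 2341 of 17931 genes higher and 2335 lower. With them 2 were called for the liver interaction, beside 1599 of all genes higher and 2061 lower. Fits of only the compared groups called 1 for cisplatin versus control in liver, beside 2720 of 14692 genes higher and 1749 lower. They called 6 for combination versus CBLB502 in liver (all genes 15.3% higher and 16.1% lower). For the organ difference in combination versus CBLB502 they called 5 (all genes 17.4% higher and 12.4% lower). In kidney those fits lost Masp1 for cisplatin versus control and gained C2 for CBLB502 versus control and C3 for combination versus CBLB502. DESeq2 gained Masp1 for CBLB502 versus control in kidney. For kidney cisplatin versus control the non-mitochondrial totals lost C8a, and the fit with no filter lost Masp1. With each library left out, counts ranged in liver from 2 to 4 for cisplatin versus control, 1 to 4 for CBLB502 versus control, 0 to 1 for combination versus cisplatin and 1 to 3 for the interaction. In kidney they ranged from 4 to 6, 1 to 2, 0 to 1 and 0 to 3 in the same order, and from 2 to 3 for combination versus CBLB502. They stayed at 0 for combination versus CBLB502 in liver and for both organ differences, and at 9 for kidney versus liver. For combination versus cisplatin the shares of all genes moved too. They were 12.5% higher and 10.6% lower without liver cisplatin library 3, and 12% and 10.3% without kidney cisplatin library 6. Except where a value above shows it, the cause was not tested. Leaving out mitochondrial rows or adding shared rows changed 0 of 126 gene values in direction or call.

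The replicate block changed 0 of 45 gene values in liver. Same-numbered libraries correlated at -0.169 to 0.176, above 0.1 in 5 of 18 pairs, and 3 of 12 libraries correlated best with their own number. No paired analysis was run for kidney. Its treated columns share the numbers 4 to 6 between arms, but these are not replicate numbers of the labels. Results for C6, C9 and Masp1 in kidney are limited: controls hold few counts, and their edgeR dispersions were 0.573, 1 and 0.243.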
